A study of Mus musculus with 10 samples.

Results

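The 6 genes described here belong to the transforming growth factor beta (TGF-beta) pathway: Tgfbr1 and Tgfbr2, which encode its receptors, Smad2 and Smad3, which encode the transcription factors that the receptors phosphorylate, Smad7, which encodes an inhibitory Smad, and Id1, a target gene of Smad signalling. They were taken as named genes, not for their values, and every peak listed with one of these symbols was used. Such peaks made up 15 of the 44925 peaks of histone H4 monomethylated at lysine 20 (H4K20me1) and 31 of the 51322 peaks of RNA polymerase II phosphorylated at serine 2 (Pol II S2P, the elongating form). All 6 genes had Pol II S2P peaks, among 11251 genes that did. For H4K20me1 the 14565 genes with a peak included 5 of the 6, and no peak was listed with Id1.

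Both marks were mapped by CUT&RUN, a method that tethers a nuclease to antibody-bound chromatin inside permeable cells and sequences the DNA cut free. The cells were muscle stem cells (MuSCs, or satellite cells) of adult C57BL/6 mice, purified with magnetic beads and grown in culture. Control cells (Ctrl) had the genotype Pax7CreERT/Suv4-20h1WT, and mutant cells (sKO) had the genotype Pax7CreERT/Suv4-20h1KO, where Suv4-20h1 is another name of Kmt5b, a methyltransferase that acts on H4K20me1. The Cre recombinase, present in both genotypes, is expressed from Pax7, a gene of satellite cells, and needs tamoxifen to act. Each genotype had 2 libraries per antibody, and 1 IgG library per genotype was not analysed here.

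TGF-beta binds the type II receptor TGFBR2, which activates the type I receptor TGFBR1, and TGFBR1 phosphorylates SMAD2 and SMAD3. These enter the nucleus with SMAD4 and act on target genes, among them Smad7, whose product blocks the receptors and closes a negative feedback loop. Id1 encodes an inhibitor of basic helix-loop-helix factors such as MYOD, and is known chiefly as a target of the bone morphogenetic protein (BMP) branch. In muscle, signalling through this pathway restrains the proliferation, differentiation and fusion of satellite cells. H4K20me1 is deposited by KMT5A, is spread over the bodies of transcribed genes, and is the substrate from which KMT5B makes the dimethylated form.

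A score in these data is a whole number for each peak and library that stands for coverage normalised to a spike-in. Summed over all peaks, the H4K20me1 scores were 15218720 and 20432644 for Ctrl but 32194136 and 35046570 for sKO. For Pol II S2P both genotypes lay between 3257665 and 4885638. At Kmt5b itself the 2 Pol II S2P peaks summed to 24 and 62 in Ctrl against 48 and 22 in sKO, so these scores do not check the genotype labels. Of 7 markers of muscle stem cells and myoblasts, Myf5 and Cdh15 had no Pol II S2P peak. The other 5 summed to between 3683 and 5571 in all libraries. Des scored 1987 to 3212, Myod1 649 to 1329, Itga7 581 to 915, Pax7 274 to 356 and Vcam1 134 to 233. Of 5 markers of other cells of muscle, Cdh5, Ptprc and Pdgfra had none, while Pecam1 summed to between 82 and 147 and Cd68 to between 840 and 1308. Pax7 and Vcam1 were thus below Cd68 in all libraries. In bulk cultures, fewer cells that carry a mark and less of the mark in each cell cannot be told apart.

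The promoters of the receptor genes and of Smad3 are shown first, because the peaks listed at the starts of these genes differed, as described next. RefSeq windows of GRCm38.p6, from 250 bases before to 50 bases after the start, were found for 3 of the 6 genes, Tgfbr1 (with a second start that is not shown), Tgfbr2 and Smad3. Capitals mark every match, on either strand, to CAGACA or GGCGCC, which are Smad-binding elements, to the E-box CANNTG, which myogenic factors bind, or to the CCAAT box. The windows are given 5′ to 3′ on the strand of the gene, at chr4:47352972-47353271 (plus strand), chr9:116175314-116175613 (minus strand) and chr9:63757945-63758244 (minus strand).
Tgfbr1: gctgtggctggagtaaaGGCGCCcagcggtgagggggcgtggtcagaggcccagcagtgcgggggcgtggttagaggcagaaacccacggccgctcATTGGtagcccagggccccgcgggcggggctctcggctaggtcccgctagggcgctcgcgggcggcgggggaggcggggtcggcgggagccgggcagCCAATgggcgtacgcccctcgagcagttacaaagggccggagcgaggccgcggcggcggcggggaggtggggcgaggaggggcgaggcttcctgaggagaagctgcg
Tgfbr2: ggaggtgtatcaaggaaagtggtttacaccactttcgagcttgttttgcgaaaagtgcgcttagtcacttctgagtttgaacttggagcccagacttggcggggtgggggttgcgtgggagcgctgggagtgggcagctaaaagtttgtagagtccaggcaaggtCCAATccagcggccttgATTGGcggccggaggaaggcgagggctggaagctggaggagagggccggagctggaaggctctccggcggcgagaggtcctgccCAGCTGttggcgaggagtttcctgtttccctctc
Smad3: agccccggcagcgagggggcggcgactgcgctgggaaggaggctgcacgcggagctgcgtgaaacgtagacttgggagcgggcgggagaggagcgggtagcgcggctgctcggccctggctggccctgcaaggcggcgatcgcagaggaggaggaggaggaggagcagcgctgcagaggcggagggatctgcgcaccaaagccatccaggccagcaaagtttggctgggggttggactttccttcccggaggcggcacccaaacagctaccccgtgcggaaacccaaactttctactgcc

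The Tgfbr1 window held 1 GGCGCC, a motif found in 12.1% of 31396 autosomal promoter windows, and 2 CCAAT boxes, found in 37.3%. The Tgfbr2 window held 2 CCAAT boxes and 1 E-box, which 72.2% of windows had. No match to any of the 4 motifs lay in the Smad3 window, and CAGACA, found in 20.9% of windows, lay in none of the 3. Their GC contents were 74.7%, 59.0% and 67.7%, against a median of 53.0%. The Tgfbr1 window lay in an H4K20me1 peak and overlapped a Pol II S2P peak. At the Tgfbr2 window there was a Pol II S2P peak but no H4K20me1 peak. That Pol II S2P peak, of 0.2 kb, scored only 10 and 18 in Ctrl and 9 and 12 in sKO, too low to be tested. The Smad3 window had an H4K20me1 peak but no Pol II S2P peak.

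The scores of Pol II S2P inside Tgfbr2 and Smad3 were highest in an intron, and the central 300 bases of these peaks are shown for that reason, with capitals and strand as before. The Tgfbr2 stretch is chr9:116152957-116153256 and the Smad3 stretch chr9:63702594-63702893, both read on the minus strand of GRCm38.p6.
Tgfbr2 intron: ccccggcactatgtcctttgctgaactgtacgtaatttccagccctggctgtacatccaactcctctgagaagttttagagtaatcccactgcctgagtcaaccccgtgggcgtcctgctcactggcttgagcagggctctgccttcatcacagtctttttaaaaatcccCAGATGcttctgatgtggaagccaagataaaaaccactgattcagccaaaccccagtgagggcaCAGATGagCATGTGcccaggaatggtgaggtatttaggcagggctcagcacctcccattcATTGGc
Smad3 intron: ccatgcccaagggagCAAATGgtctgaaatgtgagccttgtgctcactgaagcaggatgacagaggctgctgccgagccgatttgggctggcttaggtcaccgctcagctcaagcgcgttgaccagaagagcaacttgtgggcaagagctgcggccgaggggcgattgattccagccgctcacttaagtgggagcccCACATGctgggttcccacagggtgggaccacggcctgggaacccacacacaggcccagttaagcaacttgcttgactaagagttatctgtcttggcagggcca

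The Tgfbr2 stretch held 3 E-boxes and 1 CCAAT box, and the Smad3 stretch held 2 E-boxes. At least 1 E-box lay in 80.1% of the same stretches of 37256 autosomal Pol II S2P peaks listed with a gene, and at least 1 CCAAT box in 34.1%. Neither stretch held a Smad element.

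H4K20me1 was higher in sKO than in Ctrl over both receptor genes. Tgfbr1 (ENSMUSG00000007613, chr4:47353222-47414931, plus strand, GRCm38) had 3 H4K20me1 peaks that covered 94.8% of the gene. The Ctrl libraries had summed scores of 2390 and 3001, the sKO libraries of 4059 and 4519. Both sKO libraries stood above both Ctrl libraries, with a Ctrl mean of 2696 ± 432 against an sKO mean of 4289 ± 325 (SD, n = 2). The log2 fold change was 0.68 ± 0.28 (SE), with an adjusted p of 0.0194 by limma, and the gene was called higher. Here and below, a call required an adjusted p under 0.1, over all autosomal genes or peaks tested, and a log2 fold change beyond 0.5 in either direction, on log2(score + 1).

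Tgfbr2 (ENSMUSG00000032440, chr9:116084293-116175360, minus strand) carried 5 shorter peaks over 71.8% of the gene. The Ctrl libraries gave 1322 and 1570 and the sKO libraries 2665 and 2792, again without overlap. This was the largest rise among the 5 genes, 0.92 ± 0.28 on the log2 scale (adjusted p = 0.0013, limma). Per kilobase of peak, Tgfbr2 had the lowest level of the 5 in Ctrl, 22.1, and also in sKO, 41.7.

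Of the receptor-activated Smads, Smad3 was called higher and Smad2 was not, and the difference between them was not tested. Smad2 (ENSMUSG00000024563, chr18:76241580-76310963, plus strand) was almost wholly covered, over 97.1% of its length, by 2 H4K20me1 peaks. Its scores were 2753 and 3783 in Ctrl against 4205 and 4468 in sKO. Both sKO libraries were the higher, and the Ctrl libraries lay farther apart (SD 728) than the sKO libraries (SD 186). The log2 fold change of 0.43 ± 0.28 did not pass the test (adjusted p = 0.141, limma). Its SE was near that of Tgfbr1 (0.28), which was called at a larger log2 fold change, 0.68. In Ctrl the density of Smad2, 42.6 per kilobase of peak, was the highest of the 5 and stood at percentile 97.95 of the genes tested. In sKO it was 56.5, at percentile 86.4.

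Smad3 (ENSMUSG00000032402, chr9:63646767-63757994, minus strand) had 3 peaks over 47.5% of the gene, with scores of 1253 and 1500 in Ctrl against 2438 and 2425 in sKO. The groups did not overlap, and the sKO libraries were nearly equal (SD 9.19, against 175 in Ctrl). Smad3 rose by a log2 fold change of 0.83 ± 0.27 (adjusted p = 0.0036, limma). A further broad peak, listed with the neighbouring gene Aagab, reaches into the 3′ end of Smad3. When every peak that overlaps a gene was counted, whichever gene it is listed with, the same 4 genes were called higher.

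Smad7 (ENSMUSG00000025880, chr18:75367529-75395935, plus strand) had 2 peaks over 80.3% of the gene. The scores were 642 and 714 in Ctrl against 1079 and 1052 in sKO, and the inhibitory Smad was called higher with a log2 fold change of 0.65 ± 0.27 (adjusted p = 0.0167, limma). Id1 (ENSMUSG00000042745, chr2:152736251-152737410, plus strand), a gene of 1.16 kb, had no H4K20me1 peak to test. The plot of H4K20me1 scores by library shows the separation of the genotypes for the other 5 genes.

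**Figure D1:**
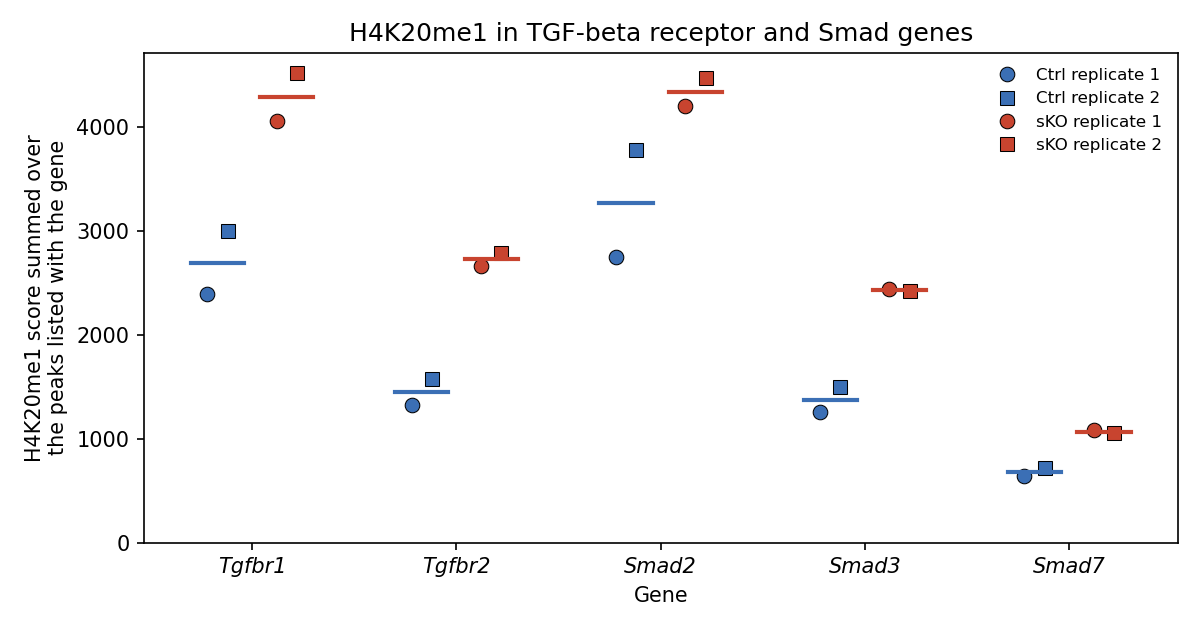
H4K20me1 score (vertical axis, summed over the peaks listed with each gene, spike-in normalised) of 5 genes (horizontal axis) in each Ctrl (blue) and sKO (red) library, circles for replicate 1 and squares for replicate 2, with bars at the mean. In each gene both sKO libraries lie above both Ctrl libraries, and in Smad2 the gap between sKO replicate 1 (4205) and Ctrl replicate 2 (3783) is small beside that between the Ctrl libraries.

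Thus 4 of the 5 genes were called higher, a share no larger than that of all genes, since 92.3% of the 13750 autosomal genes tested were called higher and 0.0% lower. Both sKO libraries stood above both Ctrl libraries in 5 of 5 genes and in 96.5% of all genes. The median log2 fold change of all genes was 1.11, and each of the 5 genes lay below it. The share of genes with a smaller rise was 4.61% for Smad2, 13.5% for Smad7, 14.7% for Tgfbr1, 24.6% for Smad3 and 32.6% for Tgfbr2. Leaving out 1 library at a time gave log2 fold changes of 0.20 to 0.65 for Smad2, 0.58 to 0.73 for Smad7 and 0.51 to 0.84 for Tgfbr1. Those of Smad3 were 0.70 to 0.96 and those of Tgfbr2 0.80 to 1.04, with a median gene between 0.90 and 1.33. Which of the 5 genes were called depended on the library left out.

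The direction of these differences depends on the scale between libraries, because the sKO totals were higher. With every library scaled to the same total over autosomal peaks, the log2 fold changes were -0.061 for Tgfbr2, -0.16 for Smad3, -0.30 for Tgfbr1, -0.33 for Smad7 and -0.56 for Smad2. On this scale 20.8% of 13752 genes were called higher and 5.69% lower, with a median of 0.13, and of the 5 genes only Smad2 was called, as lower (adjusted p = 3.74e-12, limma). The scaling moved the median gene by nearly its whole rise. A single factor per library shifts all genes nearly alike, so the order of the 5 genes could hardly change. After quantile normalisation, where it could, Smad7 (-0.50) lay below Smad2 (-0.45). The spike-in counts behind the deposited scale were not used here.

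**Figure D2:**
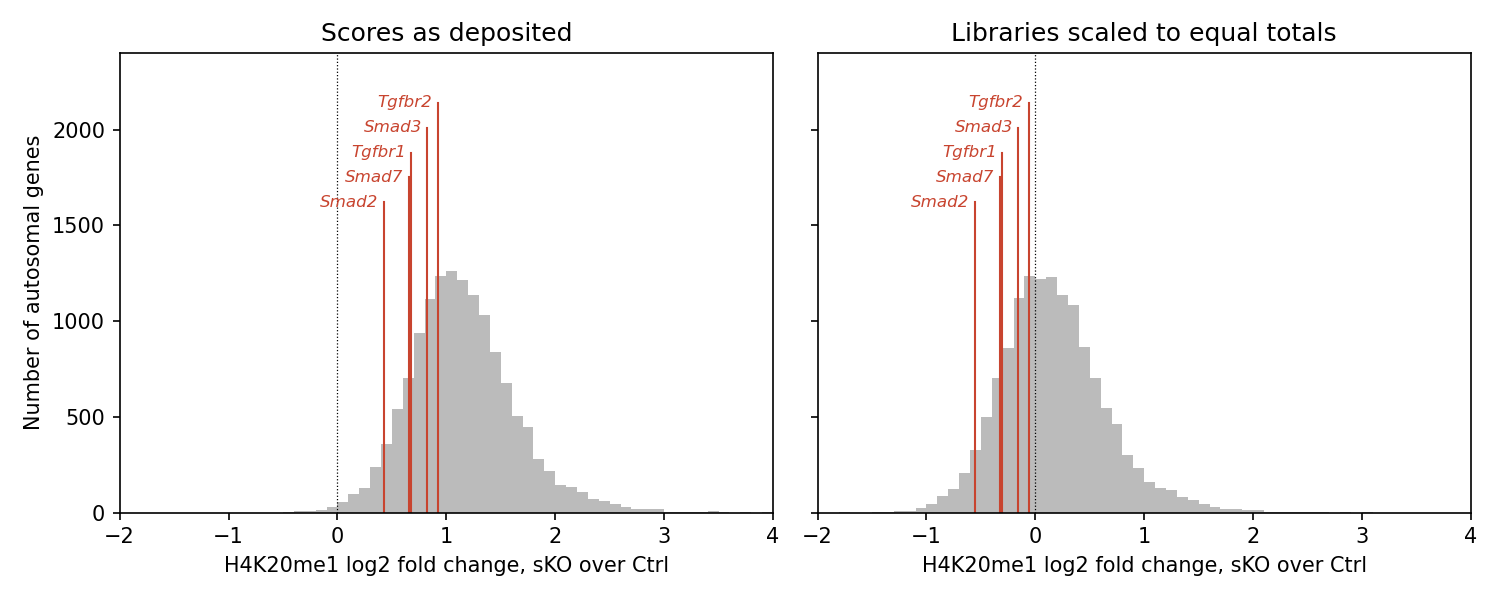
Number of autosomal genes (vertical axis) by H4K20me1 log2 fold change of sKO over Ctrl (horizontal axis, bins of 0.1, values beyond the axis put in the end bins), on the deposited scale (left) and with libraries scaled to equal totals (right). Red lines mark the 5 genes. All 5 lie left of the median gene (1.11 and 0.13), above 0 on the left and below 0 on the right.

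Read as a share of the autosomal total of its library, Smad2 held 203 and 209 parts per 1000000 in Ctrl against 142 and 139 in sKO, a change of -32.0%. Tgfbr1 held 177 and 166 in Ctrl against 137 and 140 in sKO, a change of -19.1%. For Smad7 the shares were 47.4 and 39.4 in Ctrl against 36.4 and 32.6 in sKO, a change of -20.6%. Both sKO libraries were below both Ctrl libraries for these genes and for Smad3 (-10.3%), thus for 4 of 5, against 27.3% of all genes below and 49.3% above. Tgfbr2 overlapped between genotypes, with 97.7 and 86.7 in Ctrl against 89.9 and 86.6 in sKO (-4.30%). With 2 libraries against 2 the exact two-sided permutation test cannot give a p below 0.333, its value for these 4 genes. For Pol II S2P the share was lower in both sKO libraries at Id1 alone of the 6 genes (140 and 105 in Ctrl against 104 and 99.1 in sKO), as in 26.9% of all genes.

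Read peak by peak, the H4K20me1 scores were higher in sKO throughout the genes. Of the 15 peaks 12 were called higher, against 90.1% of 40902 autosomal peaks tested. Without sKO replicate 1 the median log2 fold change of the 15 peaks was 0.72, against 1.20 over all peaks. Without sKO replicate 2 these medians were 0.74 and 1.08. Which of the 15 peaks were called depended on the library left out. In 15 of 15 both sKO libraries were above both Ctrl libraries, against 93.9%. On equal totals 2 were called lower, the peak at the start of Smad2 and the peak nearest the start of Tgfbr2, against 4.42% of all peaks. On the deposited scale the log2 fold changes of the 15 peaks ran from 0.28 to 1.16 with a median of 0.73, and the median over all peaks was 1.14. The peak at the start of Smad2, from 0.98 kb before the start to 28.0 kb into the gene, scored 1220 and 1690 in Ctrl against 1703 and 1782 in sKO. It was not called (0.28 ± 0.27, adjusted p = 0.316, limma). The second Smad2 peak, over the rest of the gene and past its end, scored 1533 and 2093 in Ctrl against 2502 and 2686 in sKO, and was called higher at 0.53 ± 0.28 (adjusted p = 0.0608).

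In Tgfbr2 the intronic peak nearest the start, 1.96 to 11.2 kb into the gene, scored 227 and 245 in Ctrl against 326 and 314 in sKO, and was not called (0.44 ± 0.30, adjusted p = 0.16, limma). The third peak, 34.2 to 54.4 kb into the gene, scored 366 and 413 in Ctrl against 785 and 966 in sKO and rose by 1.16 ± 0.28 (adjusted p = 7.48e-05). Both peaks had non-overlapping genotypes, and differences in change between peaks of a gene were not tested here. In Smad3 the first peak, which spans the promoter shown above, rose by 0.73 ± 0.27 (834 and 979 in Ctrl, 1510 and 1487 in sKO). The second, which holds the intronic stretch shown above, rose by 1.13 ± 0.28 (297 and 366 in Ctrl, 699 and 752 in sKO). The third and shortest was not called, at 0.58 ± 0.35 (adjusted p = 0.104). The 3 peaks of Tgfbr1 rose by 0.60, 0.64 and 0.76, and the 2 of Smad7 by 0.73 and 0.62.

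Per kilobase, the 15 peaks came closer together in sKO. Their mean densities lay between 19.1 and 50.2 in Ctrl and between 34.8 and 60.1 in sKO. The same narrowing was seen over all tested peaks, where the upper quartile was 1.52 and 1.59 times the lower quartile in the Ctrl libraries and 1.24 and 1.26 times in the sKO libraries. For the 15 peaks these ratios were 1.35 and 1.41 in Ctrl and 1.24 in each sKO library. When peaks were divided into 4 groups of equal size by their density in Ctrl replicate 1 and the change was measured from Ctrl replicate 2, the median log2 change was 1.48 in the sparsest group and 0.59 in the densest. The densest group held 11 of the 15 peaks and the sparsest held 0. With the roles of the Ctrl libraries exchanged, the medians were 1.87 and 1.02, and the densest group held 7. These divisions were chosen after the values had been seen. The filter was on the mean of the 4 libraries, so a peak of low score in Ctrl could enter through its sKO scores alone. How far this sets the change of the sparsest group, or the narrowing, was not tested.

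**Figure D3:**
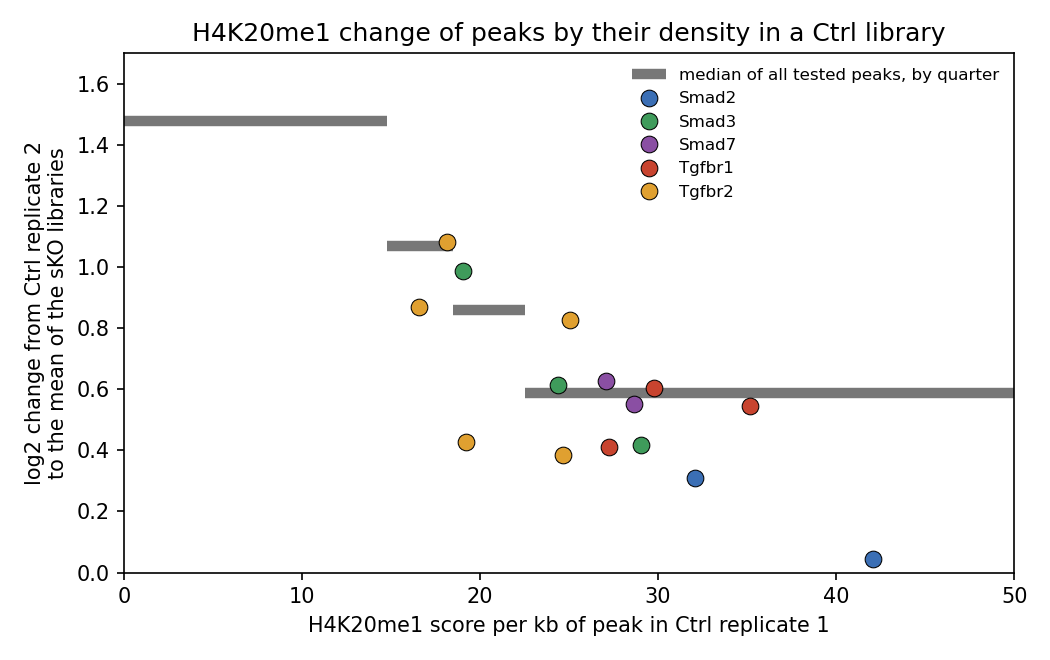
Log2 change of H4K20me1 from Ctrl replicate 2 to the mean of the sKO libraries (vertical axis) against score per kilobase of peak in Ctrl replicate 1 (horizontal axis) for the 15 peaks, coloured by gene. Grey bars give the median change of all tested peaks in each of 4 groups by density (the axis ends at 50, the densest peak of all is at 72.5), falling from 1.48 to 0.59, and the Smad2 peak at the start is farthest right and lowest. Peaks of low score in Ctrl could pass the filter through their sKO scores alone.

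The nearest H4K20me1 peaks on either side that do not overlap the gene were also read, a choice made after the values had been seen. For Smad3 this passes over the peak listed with Aagab that reaches into the gene. Around Smad7 the flanking peaks had low scores in Ctrl. The peak that ends 0.93 kb before its start, listed with Gm20544, scored 30 and 51 in Ctrl against 220 and 205 in sKO. Its Ctrl mean is under the limit of 50, so that it passed the filter through its sKO scores alone, and it is given with no test. The peak that begins 1.67 kb past its end scored 117 and 132 in Ctrl against 420 and 487 in sKO (1.86 ± 0.31). Per kilobase the 4 peaks from upstream to downstream had densities of 8.44, 29.1, 30.03 and 14.8 in Ctrl but 44.3, 48.1, 46.1 and 54.0 in sKO. The gene body stood above the downstream flank in Ctrl but not in sKO. Because the upstream peak passed the filter through sKO alone, its low Ctrl density is not read as a step.

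Id1 lay in a gap between H4K20me1 peaks. The nearest peak downstream, 1.59 kb past its end, scored 14 and 28 in Ctrl against 209 and 200 in sKO. The nearest upstream, 38.9 kb away and listed with H13, scored 25 and 33 in Ctrl against 221 and 144 in sKO. Both also passed the filter through their sKO scores alone and are given with no test. Downstream of Tgfbr1 a peak that begins 5.87 kb past the gene's end rose by 1.28 ± 0.27, against 0.60 to 0.76 for its own 3 peaks, from 444 and 612 to 1195 and 1351. The difference was not tested. The flanking peak downstream of Smad3, 30.6 kb past the gene's end, was not called, with 61 and 99 in Ctrl against 72 and 111 in sKO.

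**Figure D4:**
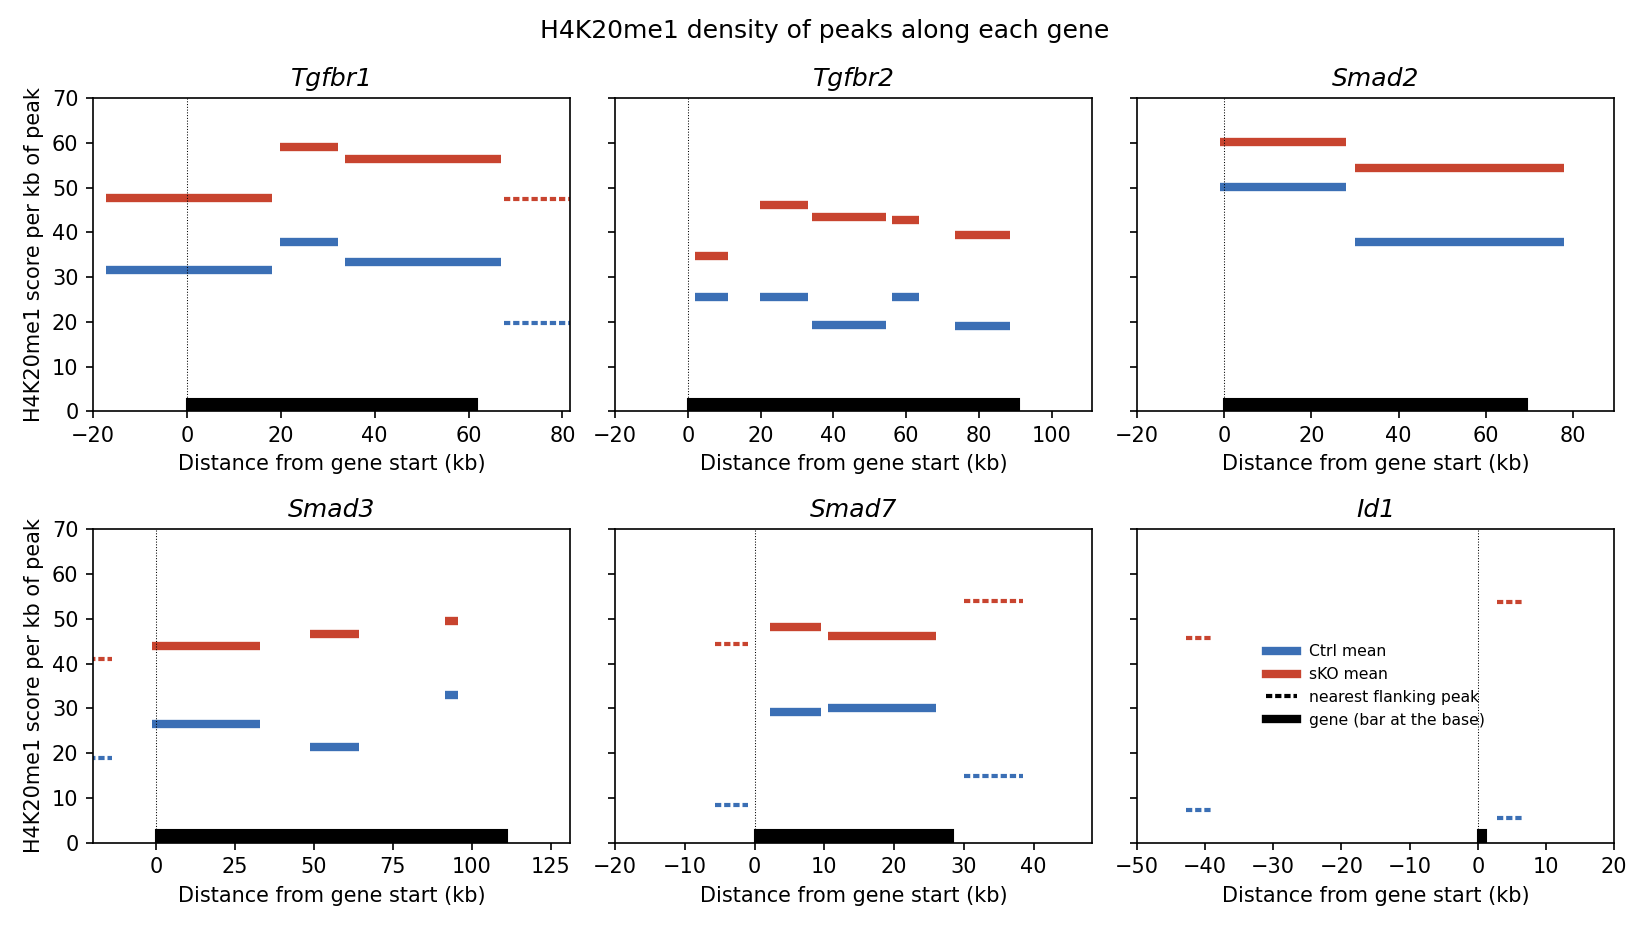
H4K20me1 score per kilobase of peak (vertical axis, mean of 2 libraries) along each gene, by distance from the gene's start in kb in the direction of transcription (horizontal axis), for Ctrl (blue) and sKO (red). Thick lines span the peaks listed with the gene, dashed lines the nearest flanking peaks in view, and the black bar the gene. At Smad7 the Ctrl lines fall from 29.1 and 30.03 in the gene to 14.8 downstream, while the sKO lines stay between 44.3 and 54.0. The peak upstream of Smad7 (8.44 in Ctrl) passed the filter through its sKO scores alone.

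Pol II S2P over the same genes was not detectably different between the genotypes. The receptor gene Tgfbr1 had a single peak, of 0.401 kb at its start, with scores of 64 and 58 in Ctrl against 75 and 71 in sKO. Both sKO libraries were above both Ctrl libraries, as they were in 9.41% of 8531 genes tested, and the log2 fold change of 0.26 ± 0.48 did not pass (adjusted p = 1, limma). Tgfbr2 had 3 peaks and summed to 177 and 306 in Ctrl against 254 and 226 in sKO, with a log2 fold change of 0.04 ± 0.41. The sKO libraries lay between the Ctrl libraries.

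Smad2 had 1 peak, at its start, that scored 71 and 110 in Ctrl against 82 and 97 in sKO (0.01 ± 0.44). Smad3 had 11 peaks, all in introns, with sums of 518 and 744 in Ctrl against 840 and 476 in sKO (0.03 ± 0.43). In both genes the genotypes overlapped, and for Smad3 the sKO libraries were the highest and the lowest of the 4. Smad7 had 14 peaks, 11 of them in introns, that summed to 938 and 1123 in Ctrl against 1217 and 939 in sKO (0.06 ± 0.43). Id1 had a single peak of 2.07 kb that covers its start, with a deposited fraction of 0.2 of its length in the gene and the rest upstream. It scored 450 and 442 in Ctrl against 502 and 337 in sKO (-0.12 ± 0.42), so that the Ctrl libraries lay between the sKO libraries.

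None of the 6 genes was called for Pol II S2P, and 0.0% of the 8531 genes were called in either direction by limma, while 1.17% had an unadjusted p under 0.05. The median gene had a log2 fold change of 0.09, and the SE of the 6 genes was 0.41 to 0.48, so a difference such as that of H4K20me1 over Smad2 (0.43) was not detectable. In all the genes except Tgfbr1 the ranges of the genotypes overlapped, as the plot of Pol II S2P by library shows.

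**Figure D5:**
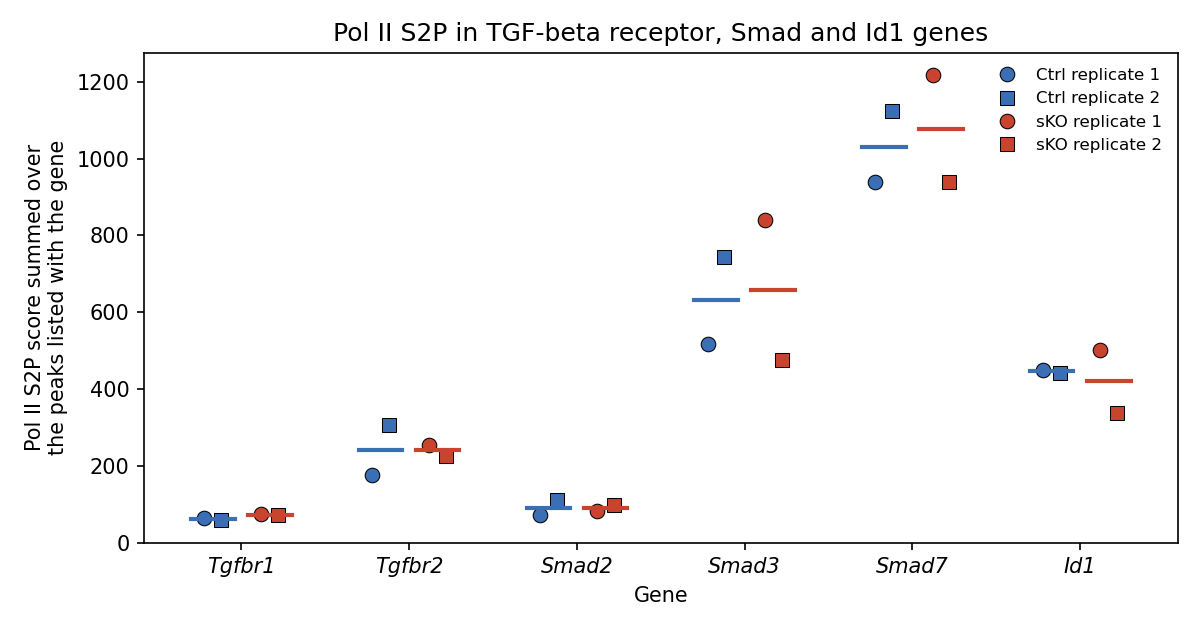
Pol II S2P score (vertical axis, summed over the peaks listed with each gene, spike-in normalised) of 6 genes (horizontal axis) in each Ctrl (blue) and sKO (red) library, circles for replicate 1 and squares for replicate 2, with bars at the mean. Only at Tgfbr1 do both sKO libraries (75 and 71) lie above both Ctrl libraries (64 and 58).

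Levels of the genes can be set side by side per kilobase of gene. Among the genes tested for Pol II S2P, the Ctrl level of Tgfbr1 stood at percentile 9.28, that of Smad2 at 12.8, Tgfbr2 at 25.1, Smad3 at 43.3, Smad7 at 84.3 and Id1 at 99.2. The value of Id1 includes the part of its peak that lies upstream of this short gene. For H4K20me1 per kilobase of gene the order was another, with Smad2 at percentile 80.8, Tgfbr1 at 78.4, Smad7 at 54.7, Tgfbr2 at 40.4 and Smad3 at 32.9. The values of Tgfbr1 and Smad2 include parts of peaks that lie outside the gene. Their H4K20me1 peaks span 81.0 and 76.8 kb, and the genes 61.71 and 69.38 kb. Id1, the highest of the 6 in Pol II S2P, had no H4K20me1 peak. Per kilobase of peak instead of gene, the Pol II S2P order was another, with Smad3 at percentile 46.8, Smad7 at 49.9, Tgfbr1 at 62.2, Tgfbr2 at 69.1, Smad2 at 79.8 and Id1 at 90.4.

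By position, 5 of the 31 Pol II S2P peaks lay at a gene start, 2 overlapped an exon and 24 were in introns. An H4K20me1 peak overlapped 27 of the 31 (87.1%), against 69.4% of all autosomal Pol II S2P peaks listed with a gene. Of the 31, 18 had a mean score above the limit of 50 and were tested, and 0 were called, against 0.0447% of 22353 peaks called higher and 0.00447% lower. Their log2 fold changes ran from -0.62 to 0.72, both of them intronic peaks of Smad7. The lowest scored 74 and 84 in Ctrl against 81 and 32 in sKO, 4.06 kb from the start, and the highest 96 and 97 in Ctrl against 164 and 156 in sKO, 20.1 kb from the start. In the highest both sKO libraries were above both Ctrl libraries, which its choice as the highest of the 18 favours. The intronic Tgfbr2 peak whose sequence is shown above scored 127 and 208 in Ctrl against 172 and 183 in sKO (0.13 ± 0.40), and that of Smad3 168 and 194 in Ctrl against 185 and 93 in sKO (-0.46 ± 0.40).

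The peaks next to the ends of Smad7 and Id1 showed no common direction. Past the end of Smad7 a peak of 2.63 kb scored 379 and 480 in Ctrl against 813 and 653 in sKO (0.77 ± 0.40, adjusted p = 0.9998, limma). It begins 1.44 kb from the gene, in the downstream region where H4K20me1 rose by 1.86. Past the end of Id1 a peak of 2.16 kb scored 824 and 843 in Ctrl against 779 and 673 in sKO (-0.20 ± 0.40). It overlaps the H4K20me1 peak past Id1, which scored 14 and 28 in Ctrl against 209 and 200 in sKO and is given with no test. A link between the marks was not tested. For Pol II S2P both sKO libraries were above both Ctrl libraries at Smad7 and below them at Id1. This held in 16.7% and 6.84% of all peaks, and neither Pol II S2P peak was called.

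The wider pathway was read from a list of 58 further genes. For H4K20me1, 44 were tested, 40 were called higher and 0 lower, against 92.3% of all genes called higher, with a median log2 fold change of 1.18 against 1.11 for all genes. All 14 ligand genes tested were called, with a median of 1.31. Of the 11 receptor and co-receptor genes 10 were called (median 1.14), of the 5 other Smads 4 (median 0.63) and of the 12 antagonists and regulators 10 (median 0.88). Only 2 of the 11 target genes had a peak, and both were called higher. The largest rises were those of Inhba, which encodes a subunit of activin (49 and 67 in Ctrl, 358 and 341 in sKO, 2.59 ± 0.37), and Snai1, a repressor induced by TGF-beta (80 and 93 in Ctrl, 462 and 450 in sKO, 2.39 ± 0.33). The smallest were 0.41 ± 0.29 for Smurf2, a ubiquitin ligase that acts with SMAD7 on the receptors (4072 and 5301 in Ctrl, 6017 and 6311 in sKO), and 0.41 ± 0.27 for Smad5, a Smad of the BMP branch (1153 and 1648 in Ctrl, 1843 and 1815 in sKO), neither of them called. On equal totals 30 of the 44 had a positive and 14 a negative log2 fold change, and 13 were called higher and 3 lower, against 20.8% and 5.69% of all genes and a median log2 fold change of 0.13. Those called lower were Smurf2, Smad5 and the BMP receptor gene Bmpr2. Positive values were those of 13 of the 14 ligand genes and 1 of the 5 other Smads.

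For Pol II S2P, 31 genes of the list were tested and 0 were called, with a median log2 fold change of 0.10. The highest values were those of the ligand gene Gdf11 (215 and 226 in Ctrl, 339 and 278 in sKO, 0.48 ± 0.41) and of Pmepa1, a target that dampens the pathway (1391 and 1729 in Ctrl, 2293 and 1945 in sKO, 0.45 ± 0.43). The lowest were those of the Id1 relatives Id3 (1567 and 1612 in Ctrl, 1441 and 1061 in sKO, -0.36 ± 0.43) and Id2 (133 and 114 in Ctrl, 99 and 103 in sKO, -0.28 ± 0.42). In these 4 genes the genotypes did not overlap, which their choice as the extremes of the 31 favours. Over all genes, not so chosen, sKO was above in 9.41% and below in 4.52%, so these shares are no measure for the 4. On equal totals Id3 alone of the 31 was called, as lower (-0.50, adjusted p = 0.0136, limma), and 0.855% of all genes were. Like Id1, neither Id2 nor Id3 had an H4K20me1 peak.

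The genes most like the 5 that were tested with both antibodies, in the pattern of their scores over the 8 libraries, were sought among 5848 genes. They were Suclg1 for Tgfbr1, Rassf3 for Tgfbr2, Carm1 for Smad2, Gm21969 for Smad3 and Myo1e for Smad7. The root mean square difference on the log2 scale was between 0.0292 for Smad3 and 0.0753 for Smad2, where the median over all genes was between 0.232 and 0.338. Each of these genes is the nearest of 5848 by choice, so its place below the median is set in advance. Whether the matches mean a shared trait was not tested.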

How the data were processed

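Only the processed CUT&RUN tables of H4K20me1 and Pol II S2P, with 4 libraries each, were used. Per the labels and the study's methods, the authors checked the reads with FastQC 0.11.8, trimmed them with Trimmomatic 0.39, aligned them with STAR 2.7.3a to mm10 (GRCm38), removed duplicates with Picard 2.21.7 and normalised the coverage to spike-in DNA of S2 cells; SICER 0.0.41 and MACS2 2.1.1 are also named in the submitters' processing notes, with no role. The deposited score is a whole number per peak and library that is not divided by peak length, so numbers of reads, and intervals from them, could not be given. The authors also deposited the fraction of each peak that lies in the gene it is listed with, and the other column used here, the distance of the peak's centre from the gene's start. Each peak is listed with at most 1 gene, so a broad peak over neighbouring genes counts for 1 of them.

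Scores were summed per gene identifier, and genes or peaks on autosomes with a mean over 50 in the 4 libraries were tested with limma 3.58.1 in R 4.3.3 (eBayes with a mean-variance trend, log2(score + 1), genotype as the only factor, no further scaling), with Benjamini-Hochberg adjustment over all features tested. Fold changes of low scores are understated on this scale. Libraries are described as 2 biological replicates by the study, and the labels do not name the animals. The SE and p-values rest on a spread between libraries that limma largely shares among the features tested. They do not measure the spread of each gene's own libraries alone. With no trend, the H4K20me1 SE was 0.271 for each of Tgfbr1, Tgfbr2, Smad2, Smad3 and Smad7. For Pol II S2P it was 0.387 for each of the 6 genes. A difference in scale between libraries enters all genes alike, so the calls are not independent. Shares of library totals were compared with an exact permutation test. The fitting procedure was tested on simulated data. Coordinates are those of the deposited tables, which for 6 of 6 genes were the same in GENCODE M21. Sequences come from RefSeq (GRCm38.p6), read with pysam 0.24.0, and motifs were searched on both strands. Tables and plots used Python 3.11.15, pandas 2.3.3, numpy 2.4.6, scipy 1.17.1 and matplotlib 3.10.9.

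The 6 genes, the list of 58 pathway genes and the tests were chosen with earlier results of these data known. All 6 genes are named, and of the pathway list the 2 highest and the 2 lowest log2 fold changes per antibody, plus, after their values were seen, Bmpr2 and the peaks next to the genes. The most similar gene is the one with the smallest root mean square difference of log2(score + 1) after each antibody was centred on the gene's mean. Alternatives were equal totals, quantile normalisation, a pseudocount of 10, no filter or a limit of 100, no trend, a replicate block, leaving out each library, X and Y included, and other ways of giving peaks to genes.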

Additional observations from a re-analysis of the deposited data

How the results depend on the processing

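For H4K20me1, 4 genes and 12 peaks were called higher, and 0 genes and 0 peaks lower. On equal totals 0 genes and 0 peaks were higher and 1 gene and 2 peaks lower. After quantile normalisation 0 genes and 0 peaks were higher, 0 genes and 4 peaks lower. In that setting 1426 of all 13750 genes were called higher and 1526 lower. Of all 40902 peaks 4749 were called higher and 4727 lower. Leaving out 1 library at a time gave 0 to 5 genes and 1 to 14 peaks higher and 0 to 0 lower, with 0 genes without either sKO library, 2 peaks without sKO replicate 1 and 1 peak without sKO replicate 2; a lone library is then taken to vary like the other pair. A pseudocount of 10, other filters, no trend, X and Y, and both other ways of giving peaks to genes left the same 4 genes called. After quantile normalisation the log2 fold changes of the genes were -0.23 (Tgfbr1), -0.054 (Tgfbr2), -0.45 (Smad2), -0.16 (Smad3) and -0.50 (Smad7), against -0.30, -0.061, -0.56, -0.16 and -0.33 on equal totals. The first Smad2 peak was then at -0.61 (equal totals -0.70), the third Smad3 peak at -0.68 (-0.39), the first Tgfbr2 peak at -0.79 (-0.54) and the third Tgfbr2 peak at 0.05 (0.18).

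The Pol II S2P values of 5 genes changed sign in at least 1 setting, that of Tgfbr1 stayed positive wherever it was tested (0.12 on equal totals, 0.14 after quantile normalisation), and no gene was called in any. On equal totals the values that turned were -0.098 (Tgfbr2), -0.13 (Smad2), -0.11 (Smad3) and -0.081 (Smad7), and after quantile normalisation -0.049, -0.096, -0.092 and -0.061. Leaving out 1 library gave -0.35 to 0.43 (Tgfbr2), -0.30 to 0.32 (Smad2), -0.38 to 0.44 (Smad3), -0.13 to 0.25 (Smad7), -0.40 to 0.17 (Id1) and 0.19 to 0.33 (Tgfbr1). Over all peaks limma called 10 higher and 1 lower, and 556 and 267 on equal totals.

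The share of the H4K20me1 total was below Ctrl in both sKO libraries for 4 of 5 genes, against 27.3% of all genes. With X and Y, or with gene-listed peaks only, this held for 3 of 5. For Pol II S2P it held for 1 of 6 genes (Id1), against 26.9% of all genes, and for 0 with a total over gene-listed peaks. The shares of all genes under these other totals are not given here. The counts also changed with 1 library left out, where 2 libraries separate from 1 more easily, so they are not read.

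From gene to gene, same-numbered libraries did not deviate together. The correlation of their deviations from the group means was 0.041 over H4K20me1 genes and -0.043 over Pol II S2P genes, so the numbers were not taken as a pairing. A shift shared by all genes of a library does not enter this correlation. Replicate 1 had the lower H4K20me1 total in both genotypes, and the lower Pol II S2P total in Ctrl alone. With the replicate number as a block, 4 genes and 13 peaks were called higher for H4K20me1 (the third Smad3 peak joined, adjusted p = 0.0628, limma) and 0 of either for Pol II S2P. Of all 13750 genes 12718 were then called higher for H4K20me1, and of all 40902 peaks 37006. With the block the SE of Tgfbr2 fell from 0.276 to 0.226 for H4K20me1 and rose from 0.41 to 0.719 for Pol II S2P.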
